A study of Homo sapiens with 6 samples.

Results

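Named divergent transcripts are long noncoding RNA (lncRNA) genes whose symbol ends in -DT, after a coding gene that starts nearby on the opposite strand. The genes described here are the lncRNA genes of GENCODE release 44 with such a symbol and with 60 or more counts summed over the 6 libraries. This rule took 38 of the 589 -DT lncRNA genes, in a table of 63241 genes. Of the other 551, 233 had between 1 and 59 counts and 318 had 0 counts. The 38 genes were chosen by their summed counts, so their levels are given as a description and without a test.

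The libraries came from HT-1376, an established human bladder carcinoma cell line. In 3 libraries SHMT2 was silenced by an siRNA (group siSHMT2), in the other 3 the cells received a non-targeting siRNA (group siNC), and all cells were collected 24 h after transfection. SHMT2 is the mitochondrial serine hydroxymethyltransferase, which turns serine into glycine and passes a one-carbon unit to folate. The libraries were made from captured mRNA with a kit that keeps the strand. The study's text calls the libraries of a group biological replicates, and how they were separated (cultures or transfections) is not given in the sources used here. The summed counts of the siNC libraries 1 to 3 were 817748, 660559 and 890574, and those of the siSHMT2 libraries 1 to 3 were 533689, 818859 and 815061. These sums are far below the number of sequenced reads per sample that the study's text reports. The reason for this gap was not tested.

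The labelled cell type was checked against its markers. Of 15 epithelial and urothelial markers, 11 had 60 or more counts, led by KRT8 with 13773 counts, and UPK1A and UPK3A, which mark differentiated urothelium, had 0. The summed FPKM of the 15 lay between 2136 and 2390 in the 6 libraries. FPKM is a count scaled to the length listed for the gene in the deposited data and to the total of its library. Of 6 blood markers 4 were at 0 and none had 60 counts. Of the fibroblast markers 3 of 6 and of the endothelial markers 2 of 4 were at 0, with at most 62 counts (COL1A2) and 9 counts (CDH5).

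Many promoters of coding genes, above all those rich in CpG, start transcription in both directions. The upstream antisense RNA is usually short, because early polyadenylation sites with few U1 sites around them end it, and the nuclear RNA exosome then degrades it. A minority is spliced or stable enough to be annotated as a gene, and such genes carry the -DT symbol. An RNA annotated upstream of one coding gene may run into the exons of the next gene, which lies on the other strand. Reads of the 2 strands can be told apart there only where the counting uses the strand, and the strand setting of the counting is not given in the sources used here.

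The sequence around the starts was read in the RefSeq promoter windows of GRCh38.p14, which run from 250 bases before to 50 bases after a start. A window was found for 31 of the 38 coding genes in the symbols and for 31 of the divergent transcripts. Of the 31 pairs with a window for the coding gene, 18 had the annotated start of the divergent transcript inside that window. Stretches of 30 bases are shown for 4 coding genes whose divergent transcripts are described in detail, written 5′ to 3′ on the strand of the coding gene, with the matched motif in capitals. The capitals mark CCAAT or its reverse complement ATTGG, and in MAGOH the reverse complement of CCGGAAG.
MVP, chr16:29820176-29820205, plus strand, in an exon of MVP-DT and of PAGR1: gtactcacccagATTGGaaaatgaaagcca
WDR5B, chr3:122416175-122416204, minus strand, reaching the start of WDR5B-DT: ccggaaatgaacATTGGcgacttttttgcg
MAGOH, chr1:53238588-53238617, minus strand, in an exon of MAGOH-DT: tcttgttgccaCTTCCGGgcgaagaggtta
SLC20A1, chr2:112645770-112645799, plus strand, between the 2 genes: aagcgggccgggCCAATgagcgccaccgtc

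The letters were searched on both strands, and matches of different motifs were allowed to overlap. CCAAT, the letters bound by NF-Y, was in 17 of the 31 windows of the coding genes (54.8%), in 7 of the 31 windows of the divergent transcripts (22.6%) and in 34.6% of all 35116 windows. GGGCGG, the GC box, was in 19 (61.3%) and 21 (67.7%) windows, with 45.0% of all windows. CCGGAAG, the ETS letters, was in 8 (25.8%) and 6 (19.4%) windows, with 10.3% of all windows. TATAAA was in 3 (9.68%) and 2 (6.45%) windows, with 11.5% of all windows. The palindromic motif of NRF1 was in none of the windows of the pairs and in 1.24% of all windows. The median GC content was 64.3% in the windows of the coding genes and 67% in those of the divergent transcripts, against 58.7% in all windows. The median number of CpG was 25 and 29, against 14. A match of letters is a description and not a bound site.

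The 38 divergent transcripts held 56811 counts in all, with a median of 338 and a range from 62 to 25870. They took 1.24%, 1.27% and 1.24% of the counts of the siNC libraries and 1.25%, 1.27% and 1.25% of those of the siSHMT2 libraries. MVP-DT alone had 45.5% of these counts, and the 8 most abundant genes had 82.5%. The 3 genes just inside the minimum were COQ7-DT with 62 counts, SLC20A1-DT with 63 and ANKRD42-DT with 64. The 3 just outside were MRPS35-DT and TMED2-DT with 59 counts each and PSMD14-DT with 58.

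**Figure D1:**
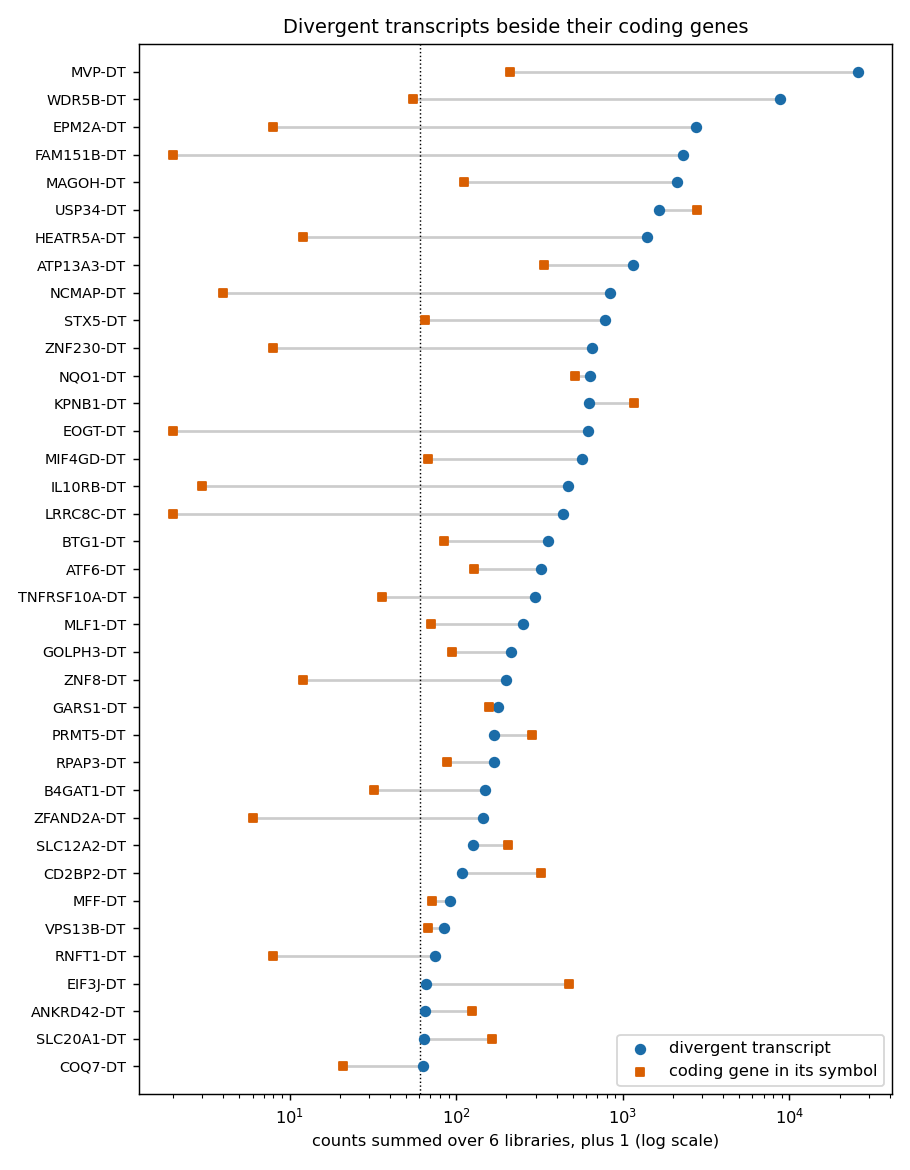
Counts summed over the 6 libraries (plus 1, log scale) of 37 of the 38 divergent transcripts (circles) and of the coding gene in each symbol (squares), ordered by the divergent transcript, with the minimum of 60 counts as a dotted line. The circle lies to the right of the square in 29 of the 37 pairs drawn.

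The divergent transcript had more counts than its coding gene in 30 of 38 pairs (78.9%). Per length the number was also 30, since USP34-DT and KPNB1-DT were below their coding genes in counts but above them in FPKM, and GARS1-DT and MFF-DT were above in counts but below in FPKM. In single libraries 28 or 29 of the 38 were above, and in 27 pairs the divergent transcript was above in every library. In 8 pairs it was below in every library, and GARS1-DT, MFF-DT and VPS13B-DT were mixed. The median ratio of the summed counts was 4.18. Of the 551 -DT genes under 60 counts, 549 had a coding gene in the table and 20 of these (3.64%) were above it. The 2 sets were split by the count of the divergent transcript, so this difference is part of the rule. The coding genes of the 38 had a median of 70.5 counts, against 45 for those of the others, and 15 of the 38 had under 60.

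MVP-DT (ENSG00000238045, chr16:29808636-29821252, minus strand, 5 transcripts) lies across the start of MVP, which encodes the major vault protein. It had 4365, 3709 and 5025 counts in siNC and 3137, 4687 and 4947 counts in siSHMT2. MVP had 31, 23 and 44 counts in siNC and 25, 55 and 31 counts in siSHMT2. MVP-DT was above MVP in all 6 libraries. Its FPKM was 2180, 2293 and 2304 in siNC and 2400, 2337 and 2478 in siSHMT2, without overlap between the groups, while the groups overlapped in CPM (counts scaled to the library size after TMM normalization). The mean FPKM was 2259 ± 68.8 (SD, n = 3) and 2405 ± 70.7, beside 13.9 ± 2.63 and 17.3 ± 5.11 for MVP, whose groups overlapped on both scales. The FPKM of MVP-DT rests on a listed length of 2449 bases, which is shorter than the union of its exons in GENCODE. Of the 4039 exonic bases of MVP-DT in that union, 2506 (62.0%) lay under exons of 6 genes on the plus strand. The longest overlap was 1536 bases with MAZ, a zinc finger transcription factor with 787 counts, followed by 605 bases with PAGR1 (61 counts) and 365 with PRRT2 (11 counts). None of the overlapping exons belonged to MVP itself.

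WDR5B-DT (ENSG00000272758, chr3:122416200-122443180, plus strand) starts 138 bases from WDR5B, a single-exon relative of the histone methylation adaptor WDR5. It had 1653, 1329 and 1721 counts in siNC and 1009, 1563 and 1522 counts in siSHMT2. WDR5B had 14, 11 and 8 counts in siNC and 2, 11 and 8 counts in siSHMT2. The divergent transcript was far above WDR5B in each library. Its FPKM was 1726 ± 42.4 (SD, n = 3) in siNC and 1640 ± 18.0 in siSHMT2, without overlap between the groups, which did overlap in CPM. Of its exonic bases 47.5% lay under KPNA1, an importin alpha that carries proteins into the nucleus, which had 1255 counts.

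EPM2A-DT (ENSG00000235652, chr6:145799409-145887430, plus strand) had 554, 418 and 529 counts in siNC and 314, 512 and 419 counts in siSHMT2. EPM2A, which encodes the glycogen phosphatase laforin, had 7 counts in all. The start of EPM2A-DT lay 63386 bases upstream of that of EPM2A. This was the widest gap among the pairs whose divergent transcript starts upstream of the coding gene. Of the bases of EPM2A-DT, 1981 lay under exons of SHPRH, a ubiquitin ligase with 54 counts. FAM151B-DT (ENSG00000249042, chr5:80411231-80488095, minus strand) had 431, 341 and 432 counts in siNC and 254, 428 and 404 in siSHMT2, while FAM151B had 1 count in all. Here 5097 bases lay under exons of ZFYVE16, an endosomal FYVE protein with 6433 counts, which was above FAM151B-DT in every library.

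MAGOH-DT (ENSG00000226754, chr1:53238550-53246482, plus strand) had 384, 316 and 447 counts in siNC and 286, 351 and 333 in siSHMT2. MAGOH, a core subunit of the exon junction complex, had 19, 18 and 27 counts in siNC and 11, 17 and 19 in siSHMT2. MAGOH-DT was above MAGOH in every library, and 53.9% of its exonic bases lay under LRP8, a lipoprotein receptor with 314 counts. HEATR5A-DT (ENSG00000250365, chr14:31420286-31452883, plus strand) had 226, 209 and 274 counts in siNC and 179, 277 and 226 in siSHMT2. Its coding gene HEATR5A, a HEAT repeat protein, had 11 counts in all, and 1660 of the bases of HEATR5A-DT lay under DTD2, a tRNA deacylase with 20 counts.

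USP34-DT (ENSG00000270820, chr2:61471188-61484130, plus strand) had 320, 259 and 310 counts in siNC and 193, 326 and 244 in siSHMT2. USP34, a deubiquitinase, had 495, 365 and 532 counts in siNC and 357, 472 and 561 in siSHMT2, so that it was above its divergent transcript in each library by count. Per length the order was the reverse, with an FPKM of 186 ± 12.4 (SD, n = 3) for USP34-DT and 50.1 ± 2.44 for USP34 in siNC. The far end of USP34-DT shared 690 bases with XPO1, the nuclear exportin, which had 471 counts.

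Several pairs had almost no counts in the coding gene. EOGT-DT had 621 counts beside 1 of EOGT, a glycosyltransferase of the endoplasmic reticulum. NCMAP-DT had 840 beside 3 of NCMAP, a myelin protein of Schwann cells, and IL10RB-DT had 465 beside 2 of IL10RB, a subunit of the interleukin-10 receptor. With so few counts in the coding gene no ratio is given. Among the genes with the largest share of exons under the other strand were IL10RB-DT, at 84.6% and chiefly under IFNAR2 (22 counts), and NCMAP-DT, at 74.4% and under RCAN3 (30 counts).

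TNFRSF10A-DT is a symbol that 2 genes share. The one with 295 counts (ENSG00000250714, chr8:23225233-23230915, minus strand) lies on the same strand as TNFRSF10A, a TRAIL receptor, and is thus not divergent from it by its annotated strand. All of its exonic bases lay under exons of the other TNFRSF10A-DT gene (ENSG00000246582), which lies on the plus strand and had 5 counts. TNFRSF10A had 35 counts. The 37 other members lay on the strand opposite to their coding gene.

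At the other end of the order were pairs in which the coding gene was higher. EIF3J-DT had 17, 8 and 14 counts in siNC and 4, 10 and 12 in siSHMT2, while EIF3J, a translation initiation factor, had 88, 62 and 91 and then 66, 69 and 101. The ratio of the mean FPKM values was 0.113, the lowest of the 38. It was 0.439 for SLC20A1-DT beside the phosphate transporter SLC20A1, and 0.457 for CD2BP2-DT beside CD2BP2, a protein bound to the U5 spliceosomal particle. In these 3 pairs the coding gene was above in every library.

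A further 16 members had between 83 (VPS13B-DT) and 778 (STX5-DT) counts. Of these, KPNB1-DT with 630 counts and SLC12A2-DT with 125 were below KPNB1, an importin beta with 1166 counts, and SLC12A2, a chloride cotransporter with 203. The other 14 were above their coding genes, from STX5-DT with 778 counts beside 64 of the Golgi syntaxin STX5 to VPS13B-DT with 83 beside 67 of VPS13B.

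Exons of 37 of the 38 members (97.4%) shared at least 1 base with exons of a gene on the other strand. This was so for 169 of the 551 -DT genes under 60 counts (30.7%). The median share of exonic bases under the other strand was 24.2% against 0%. An overlap of 100 bases or more was present in 34 members, and 9 members had 50% or more of their exonic bases under the other strand. The overlapping gene was coding in 35 members (92.1%), against 26.1% of the others. Exons of the 38 were also longer, with a median of 3012 exonic bases against 1730 for the others.

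**Figure D2:**
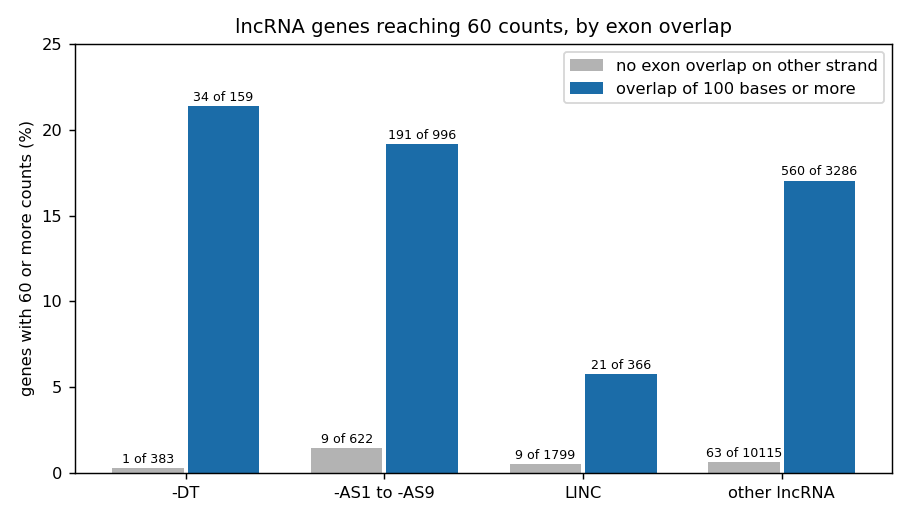
Share of lncRNA genes with 60 or more counts (percent, numbers above the bars) among genes with no exon overlap on the other strand (grey) and genes with an overlap of 100 bases or more (blue), for -DT genes and 3 other groups of lncRNA genes. The blue bar is the taller in each group, and for -DT genes the values are 0.261% and 21.4%.

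Read the other way, 1 of 383 -DT genes without overlap (0.261%) reached 60 counts, as did 3 of 47 (6.38%) with an overlap under 100 bases and 34 of 159 (21.4%) with 100 bases or more. The same order held in other lncRNA genes. Of antisense genes named -AS1 to -AS9, 1.45% of 622 without overlap and 19.2% of 996 with 100 bases or more reached 60 counts. They were 9 of 1799 and 21 of 366 (5.74%) for LINC genes, and 0.623% of 10115 and 17.0% of 3286 for all other lncRNA genes. Overlap with the other strand was therefore not particular to divergent transcripts.

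**Figure D3:**
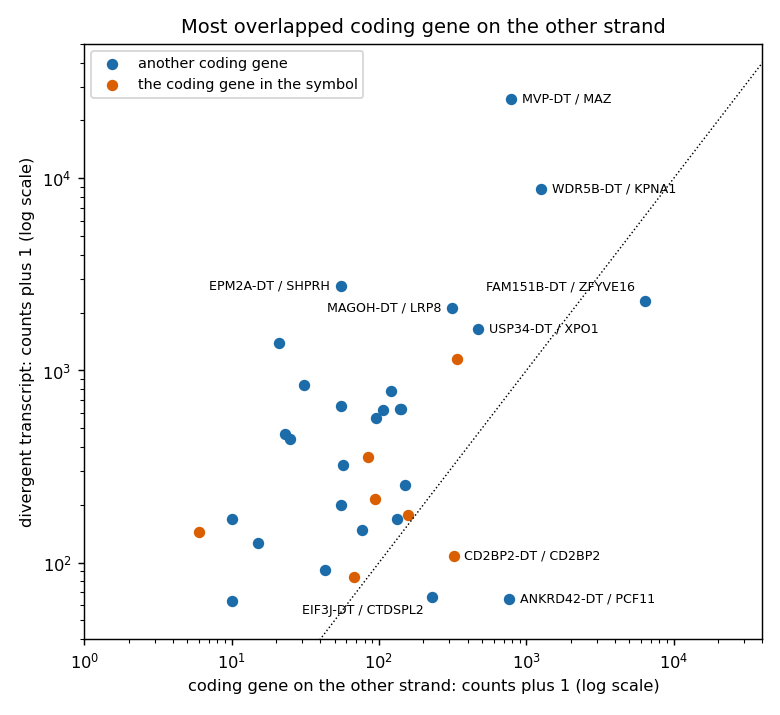
Summed counts (plus 1, log scales) of 34 of the 35 members with a coding gene across the strand, against the coding gene with which each shares the most exonic bases, with the line of equal counts dotted. Points lie above the line for 30 of the 34 drawn, and the 4 below it are FAM151B-DT, CD2BP2-DT, EIF3J-DT and ANKRD42-DT.

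The coding gene with the longest overlap was the one in the symbol in 8 of the 35 members and another gene in 27. The member had more counts than this gene in 31 of 35 (88.6%). The exceptions were FAM151B-DT under ZFYVE16 (6433 counts), EIF3J-DT under CTDSPL2 (229), CD2BP2-DT under CD2BP2 (320) and ANKRD42-DT under PCF11 (764), a termination factor. The same was seen in 77.7% of 202 antisense genes with 60 or more counts and a coding gene across the strand, in 77.8% of 9 LINC genes and in 77.3% of 525 other lncRNA genes. For -DT genes under 60 counts it was 9.03% of 144. All these groups were split by count.

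Outside the pairs, TALAM1, annotated wholly under the nuclear lncRNA MALAT1, had 138110 counts and MALAT1 had 1916. The lncRNA genes as a whole took 26.1% to 27.2% of the counts of a library. Whether reads of the other strand were counted on the 38 genes was not tested.

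SLC20A1-DT (ENSG00000237753, chr2:112641832-112645720, minus strand) was the only member without exon overlap on either strand. Its start lies 219 bases from that of SLC20A1, and its 63 counts were just over the minimum. It had 10, 16 and 19 counts in siNC and 3, 7 and 8 in siSHMT2, beside 32, 19 and 30 and then 19, 32 and 32 counts for SLC20A1. Here the coding gene was above the divergent transcript in every library. RNFT1-DT and GARS1-DT were the only members with exons over another gene on their own strand.

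Between the starts of the 37 pairs on opposite strands the median gap was 63 bases, and 33 of the 37 lay within 1000 bases of each other. In 15 pairs the gap was negative, which means that the divergent transcript starts downstream of the start of the coding gene. Exonic bases were shared within the pair in 14 of 38, so that in 24 pairs the member and its coding gene can be counted without shared exons. Of the coding genes in the symbols, 23 had exon overlap on the other strand.

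The comparison of siSHMT2 with siNC asks whether the loss of SHMT2 moved the divergent transcripts and whether it moved each together with its coding gene. SHMT2 itself had 28, 15 and 20 counts in siNC and 9, 2 and 5 in siSHMT2, without overlap between the groups. The log2 fold change was -1.78 (SE 0.48), with an unadjusted p of 0.00056 and an adjusted p of 0.93 (edgeR, quasi-likelihood, Benjamini-Hochberg). With single libraries left out it ran from -2.58, without siSHMT2 library 1 (adjusted p 0.20 by edgeR), to -1.31, without siSHMT2 library 2. Apart from the sequencing, the study reports lower SHMT2 RNA by RT-qPCR and lower SHMT2 protein by Western blot after silencing. In bulk RNA fewer cells that express a gene and less RNA per cell cannot be told apart.

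**Figure D4:**
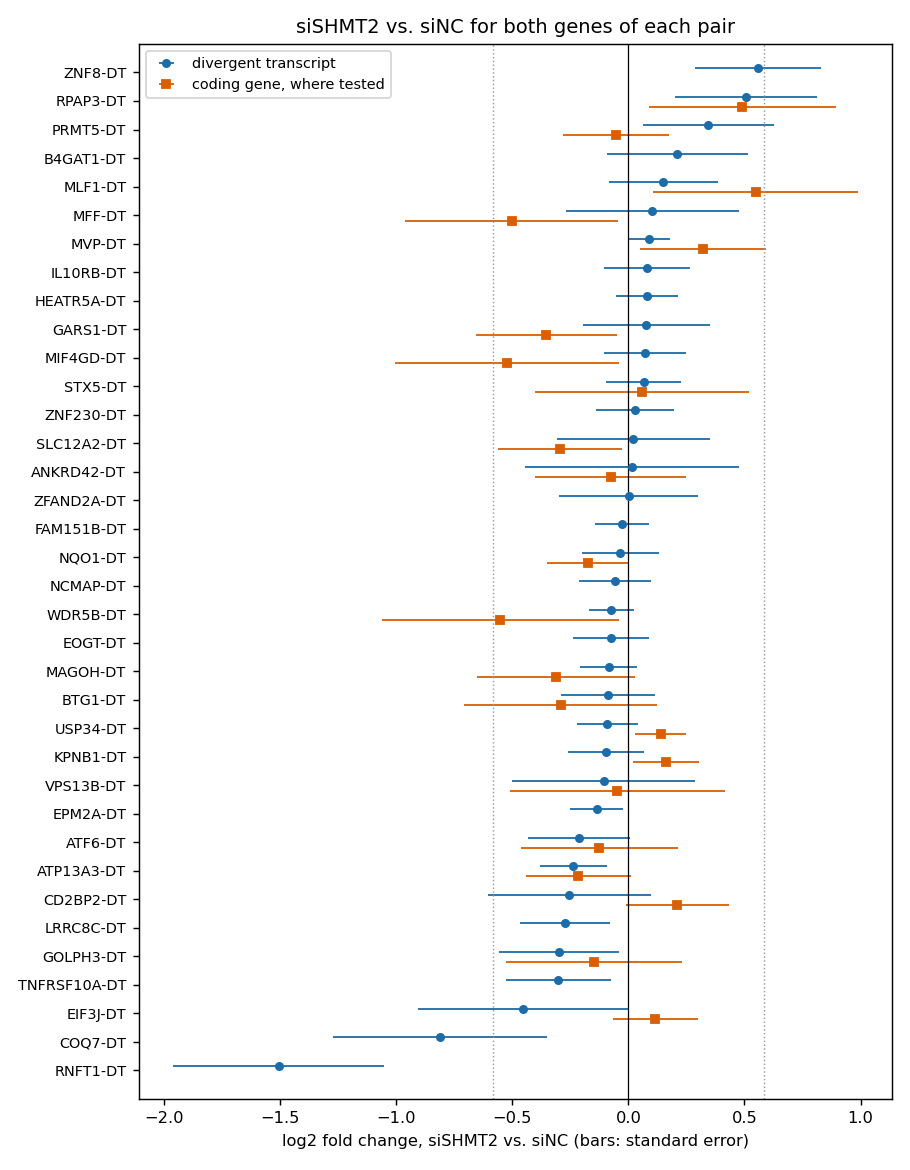
Log2 fold change (siSHMT2 vs. siNC) with its standard error for 36 of the 37 divergent transcripts tested (circles) and for the coding genes of those pairs where they were tested (squares), with fold changes of 1.5 as dotted lines. The circles lie between -1.51 (RNFT1-DT) and 0.56 (ZNF8-DT), and 19 of them lie within 0.1 of 0.

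No divergent transcript passed an adjusted p of 0.05 with a fold change over 1.5. All genes tested gave the same, with 0 of 7207 called (0%) by edgeR's quasi-likelihood test. At an unadjusted p under 0.05, 2 of the 37 members that passed the filter on low counts were called, RNFT1-DT and ZNF8-DT, beside 3.84% of all genes tested. With a fold change over 1.5 as well, only RNFT1-DT remained, 1 of 37 (2.70%) beside 2.68% of all genes, and 1.32% of all genes in its direction. RNFT1-DT passed the filter only through the siNC libraries, where it is high, so nothing is read from this share. The log2 fold changes of the 37 were positive in 16 and negative in 21, with a median of -0.03, beside -0.001 for all genes. The 20 members with 300 or more counts had log2 fold changes of at most 0.27 in size. Over all 37 members tested the standard errors ran from 0.090 to 0.46.

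For the most abundant members the libraries gave the narrowest limits. The log2 fold change was 0.09 (SE 0.09) for MVP-DT, -0.07 (SE 0.10) for WDR5B-DT, -0.14 (SE 0.12) for EPM2A-DT and -0.03 (SE 0.12) for FAM151B-DT. It was -0.09 (SE 0.12) for MAGOH-DT, -0.09 (SE 0.13) for USP34-DT and 0.08 (SE 0.13) for HEATR5A-DT. None of these 7 had an unadjusted p under 0.05, which does not show that their levels were equal. Of the coding genes across the strand from these 7 members, 8 were tested, none of them a gene in the symbols. The log2 fold changes ran from -0.29 for FBXO30 (SE 0.49) and LRP8 (SE 0.22) to 0.50 (SE 0.47) for PAGR1, with -0.03 (SE 0.15) for MAZ and 0.08 (SE 0.13) for KPNA1.

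**Figure D5:**
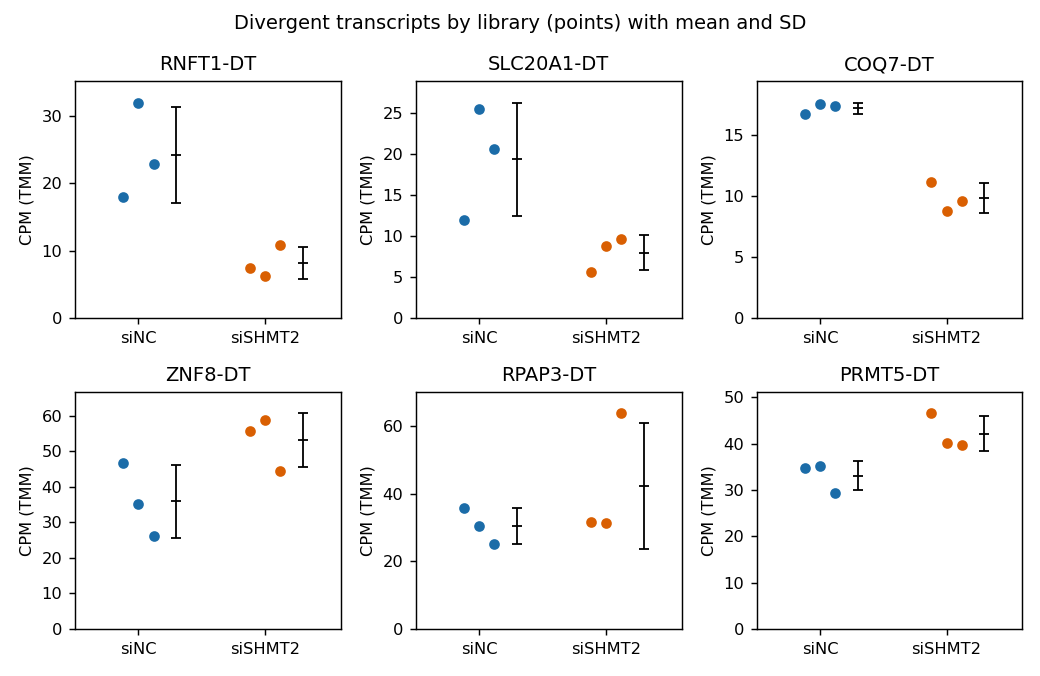
CPM of 6 divergent transcripts in each library, with the mean and SD of 3 libraries beside the points. RNFT1-DT, SLC20A1-DT and COQ7-DT are lower in all siSHMT2 libraries, PRMT5-DT is higher in all of them, and the groups overlap for ZNF8-DT and RPAP3-DT.

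RNFT1-DT (ENSG00000267302, chr17:59964832-59996972, plus strand) starts 71 bases from RNFT1, a RING finger gene. It had 15, 20 and 21 counts in siNC and 4, 5 and 9 in siSHMT2, so that the groups did not overlap. The CPM was 24.2 ± 7.12 (SD, n = 3) in siNC and 8.18 ± 2.37 in siSHMT2. The log2 fold change was -1.51 (SE 0.45), with an unadjusted p of 0.0018 and an adjusted p of 0.93 (edgeR, quasi-likelihood, Benjamini-Hochberg). No siSHMT2 library reached the 12.2 CPM of the filter, so RNFT1-DT was tested only through the siNC libraries, where it is high. RNFT1 had 2, 0 and 0 counts in siNC and 0, 2 and 3 in siSHMT2, too few for a test. Of the exons of RNFT1-DT, 270 bases lay under the pseudogene DHX40P1 (1 count), and how reads that fit several copies were counted is not given in the sources used here.

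COQ7-DT (chr16:19062144-19067691, minus strand), across the start of the coenzyme Q hydroxylase COQ7, had 14, 11 and 16 counts in siNC and 6, 7 and 8 in siSHMT2. The 2 groups did not overlap in CPM, at 17.2 ± 0.455 (SD, n = 3) and 9.86 ± 1.21. Its log2 fold change was -0.81 (SE 0.46), with an unadjusted p of 0.085 in edgeR's test. It also passed the filter through the siNC libraries alone. COQ7 had 2, 3 and 5 counts in siNC and 0, 4 and 6 in siSHMT2. ATP13A3-DT, beside the polyamine transporter ATP13A3, had 205, 202 and 238 counts in siNC and 105, 216 and 187 in siSHMT2. Its log2 fold change was -0.24 (SE 0.14), and its groups overlapped in CPM. With single libraries left out this fold change ran from -0.37, without siSHMT2 library 2, to -0.12, without siNC library 2.

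SLC20A1-DT did not pass the filter. Without a filter its log2 fold change was -1.20 (SE 0.49), with an unadjusted p of 0.014 and an adjusted p of 0.84 among 20836 genes in edgeR's quasi-likelihood test. The CPM was 11.9, 25.6 and 20.7 in siNC and 5.58, 8.78 and 9.62 in siSHMT2, and the groups did not overlap. A two-sided exact permutation test on CPM gave p = 0.2 for ZNF8-DT and p = 0.4 for RPAP3-DT. For RNFT1-DT, SLC20A1-DT, COQ7-DT and PRMT5-DT the exact test gave p = 0.1, the value that any 3 libraries against 3 without overlap must give and the smallest they allow.

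On the higher side, ZNF8-DT, beside the zinc finger gene ZNF8, had 39, 22 and 24 counts in siNC and 30, 47 and 37 in siSHMT2. The log2 fold change was 0.56 (SE 0.27), with an unadjusted p of 0.046 by edgeR, and the groups overlapped in CPM. With single libraries left out this fold change ran from 0.35, without siNC library 3, to 0.81, without siNC library 1. RPAP3-DT, which starts 28 bases from the cochaperone gene RPAP3, had 30, 19 and 23 counts in siNC and 17, 25 and 53 in siSHMT2, and only the siSHMT2 library 3 stood above the others. Its log2 fold change was 0.51 (SE 0.31), and 0.052 without that library. PRMT5-DT, beside the arginine methyltransferase PRMT5, had 29, 22 and 27 counts in siNC and 25, 32 and 33 in siSHMT2. In CPM it was 33.1 ± 3.17 and 42.1 ± 3.83 (SD, n = 3), with a log2 fold change of 0.34 (SE 0.28). PRMT5 itself was at -0.05 (SE 0.23).

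The groups did not overlap in log2 CPM for 3 of the 37 members tested (8.11%), RNFT1-DT, COQ7-DT and PRMT5-DT, beside 9.20% of all genes. Of the coding genes in the symbols 24 were tested. None had an unadjusted p under 0.05 in edgeR's quasi-likelihood test, the smallest being 0.218 for USP34, and their median log2 fold change was -0.07. Both genes were tested in 23 pairs, and in 12 of these the log2 fold changes had the same sign. Across these 23 pairs Pearson's r was 0.20, given as a description since the values share the 6 libraries. Of 50 coding genes with exons across the strand from a member, 31 were tested and 0 had an unadjusted p under 0.05 by edgeR, with a median of -0.03. Among all genes tested the share was 3.84%.

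The ratio of the divergent transcript to its coding gene within a library needs no scaling between libraries where the coding gene has counts, but follows the library size through the pseudocount of 0.5 where it has 0. Among the 23 pairs with 60 or more counts in the coding gene, the log2 ratios of the groups did not overlap in 2, CD2BP2-DT and SLC20A1-DT, beside 8.45% of all 142 such -DT pairs. Over all 38 pairs it was 4, the others being TNFRSF10A-DT, with a difference of -0.85 and 35 counts in the coding gene, and LRRC8C-DT, whose coding gene had 1 count in all, so that its ratio cannot be read, beside 7.52% of the 266 -DT pairs with a count in both genes. CD2BP2-DT had 18, 16 and 27 counts in siNC and 14, 12 and 20 in siSHMT2, beside 41, 40 and 76 and then 47, 55 and 61 counts of CD2BP2. Its log2 ratio was -1.31 ± 0.16 (SD, n = 3) in siNC and -1.82 ± 0.30 in siSHMT2, a difference of -0.50 (two-sided exact permutation test, p = 0.1). For SLC20A1-DT the difference was -1.34, from -0.84 ± 0.71 to -2.18 ± 0.28 (exact permutation test, n = 3, p = 0.1). For MVP-DT it was -0.20, for MAGOH-DT 0.21 and for USP34-DT -0.24, with overlapping groups.

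Other lncRNA groups with 60 or more counts were read in the same way. Of 213 antisense genes 9 had an unadjusted p under 0.05 in edgeR's test, and 5 of the 213 (2.35%) had a fold change over 1.5 as well. Of 32 LINC genes 1 had an unadjusted p under 0.05, and 0 passed both. Among all genes tested 3.84% passed the first rule and 2.68% both. No adjusted call was made in either group.

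The machinery that ends and degrades upstream antisense RNA was read in the same fit, in which 3.84% of all genes tested had an unadjusted p under 0.05. Of 25 genes of the RNA exosome and its nuclear adaptors 19 were tested, and 0 had an unadjusted p under 0.05 by edgeR, with a median log2 fold change of -0.04. Of 17 genes of Integrator and the Restrictor complex, which end transcription near the promoter, 7 were tested, with 0 at an unadjusted p under 0.05. Of 20 genes of cleavage and polyadenylation 16 were tested, and CPSF3, the endonuclease, was past that level. CPSF3 had 19, 9 and 11 counts in siNC and 15, 20 and 26 in siSHMT2, with a log2 fold change of 0.77 (SE 0.36), an unadjusted p of 0.039 and an adjusted p of 1.00 by edgeR with Benjamini-Hochberg adjustment. Of 13 genes of the U1 particle and its partners 11 were tested, of which 1 was past that level. The gene past that level, LUC7L3, had 337, 237 and 345 counts in siNC and 241, 334 and 422 in siSHMT2, with a log2 fold change of 0.25 (SE 0.12) and an unadjusted p of 0.044. The groups did not overlap in log2 CPM for 1 of 19 exosome, 1 of 7 Integrator and Restrictor, 1 of 16 cleavage and polyadenylation and 3 of 11 U1 genes, beside 9.20% of all genes. Of the 3 U1 genes LUC7L3 and LUC7L were higher and SNRPB was lower in siSHMT2. None of the 4 lists held a gene with an adjusted call.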

How the data were processed

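Per the labels and the study's methods, the authors checked reads with FastQC 0.11.9, trimmed them with fastp 0.23.4 and aligned them to GRCh38 with HISAT2 2.2.1; the counting program, its strand setting and its annotation are not given in the sources used here. The deposited counts are whole numbers per gene without normalization. The deposited FPKM values could be rebuilt from each count, the listed length and the total of the library, and 91 genes have no listed length. The members and gene lists were chosen with earlier results of these data known.

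Exons, strands and gene types came from GENCODE 44, and overlap was measured on the union of all exons. Promoter windows came from RefSeq. Groups were compared in R 4.3.3 with edgeR 4.0.16 (TMM, filterByExpr, quasi-likelihood test, two-sided) with Benjamini-Hochberg adjustment over 7207 genes. The log2 ratio used a pseudocount of 0.5 counts. The fit was tested on simulated data. Alternatives used limma 3.58.1, DESeq2 1.42.0, other scalings, filters and pseudocounts, and single libraries left out.

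Genes named are SHMT2; the 8 members with the most counts; the 3 up and 3 down with the smallest p; those past the unadjusted call; those without overlap on either strand; the 3 highest and 3 lowest FPKM ratios; the 3 with the largest overlap; and the 3 on each side of the count minimum. Of these, 1 member is not reported here by name and not drawn, but is in the counts over all members. The limit of the ratio count to coding genes with 60 or more counts was chosen after seeing the data. Libraries of a group differed by 1.78 to 2.63 times counting noise (chi-square per degree of freedom). Whether this spread is biological or technical was not tested. The biological coefficient of variation, the spread beyond counting noise, was 0.127.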

Additional observations from a re-analysis of the deposited data

How the results depend on the processing

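The number of adjusted calls among the divergent transcripts and their coding genes was 0 under every alternative tried. The unadjusted call (p under 0.05, fold change over 1.5) was met by 1 divergent transcript as reported. It was 2 without a filter (RNFT1-DT and SLC20A1-DT), 0 with at least 10 counts in every library, where RNFT1-DT was not tested, and 2 with limma on log2(FPKM + 1) or log2(FPKM + 0.1), which added COQ7-DT. With single libraries left out it lay between 1 and 3. It was 3 without siNC library 1, 2 without siSHMT2 library 1, 3 without siSHMT2 library 2 and 3 without siSHMT2 library 3, adding SLC20A1-DT, ZNF8-DT or RPAP3-DT. For the coding genes it was 0 to 1, with RPAP3 at 1.02 without siNC library 1 and GARS1 at -0.71 without siSHMT2 library 3. In the fit reported above, 2.68% of all genes tested met this call. No such share is given for the alternatives, so nothing is read from these counts. RNFT1-DT stayed between -1.79 and -1.29, with an adjusted p from 0.56 to 1.00. It passed the filter through the siNC libraries alone, where it is high, and no support is drawn from this range.

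The replicate numbers did not pair the libraries (correlations of the deviations of -0.016, 0.049 and -0.012). With the replicate number as a block, RNFT1-DT was at -1.53 and the number of members called was 1. Exon overlap of 50% or more was present in 9 members, and of the 1 pair with no overlap in either gene 0 had the divergent transcript above.

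Of 44 single values, 32 kept their direction under all alternatives, and 12 changed sign in 16 of 538, each time with a library left out and with an effect that did not pass the test. With single libraries left out, the log2 fold change ran from -0.084 to 0.022 for FAM151B-DT, from -0.20 to 0.00026 for MAGOH-DT, from -0.21 to 0.033 for USP34-DT and from -0.18 to 0.087 for NCMAP-DT. It ran from -0.020 to 0.17 for IL10RB-DT, from -0.37 to 0.24 for ANKRD42-DT, from -0.20 to 0.16 for PRMT5 and from -0.20 to 0.0055 for ANKRD42. The difference in the log2 ratio ran from -0.41 to 0.040 for MVP-DT, from -0.14 to 0.28 for ATP13A3-DT, from -0.45 to 0.15 for RPAP3-DT and from -0.39 to 0.51 for ANKRD42-DT. The cause was not tested. The number of reads counted on genes limits what can be seen: genes near 60 counts have standard errors near 0.46 on the log2 scale. It is far below the number of reads sequenced per the study's text, so it is not a measure of sequencing depth.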
